A study of Caenorhabditis elegans with 10 samples.

Results

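The cyclin-dependent kinase CDK-1, its A- and B-type cyclins, the CDC25 phosphatases that activate it and the Myt1-type kinase WEE-1.3 that restrains it were followed at the transcript level in germline tumours of Caenorhabditis elegans. The group comprised 10 genes, cdk-1, cyb-1, cyb-2.1, cyb-2.2, cyb-3, cya-1, cdc-25.1, cdc-25.2, cdc-25.3 and wee-1.3, taken by gene name from a table of 46536 genes, and each was found once. The RNA-seq libraries were made after removal of ribosomal RNA, from germline tumours cut out of Bristol worms at day 1 of adulthood, raised at 25 °C. Both groups carried gld-2(q497) gld-1(q485), loss-of-function alleles of the poly(A) polymerase GLD-2 and the RNA-binding protein GLD-1 whose combination makes germ cells keep dividing with or without Notch. In 5 libraries the gain-of-function allele glp-1(ar202) held the Notch receptor of the germline in its active state (ON), and in 5 libraries the receptor was removed by the null allele glp-1(q175) (OFF). The comparison asks which transcripts of the mitotic engine differ with receptor state when germ cells divide in either state. Each library is bulk tissue, and the number of animals pooled was not stated. The series' design text calls the 5 libraries of a group biological replicates.

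CDK-1 is the kinase that drives cells into mitosis and oocytes into the meiotic divisions. It is active only when bound to a cyclin, and WEE-1.3 holds the complex inactive by phosphorylating the kinase until a CDC25 phosphatase removes the phosphates. In the worm germline the B-type cyclins CYB-1 and CYB-3 both act in cell division, with CYB-3 known for its part in the onset of anaphase. CDC-25.1 is known for supporting proliferation of germ cells, and WEE-1.3 for keeping oocytes arrested until maturation.

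The deposited values are counts per 1000000 reads assigned to genes (CPM), and depth ranged from 17504785 to 38526696 reads per library. The glp-1 transcript spanned 206 to 274 CPM with the active allele and 69.7 to 101 CPM with the null allele, so the libraries separate as labelled, although the alleles themselves differ between groups. rRNA genes took 38.9% to 50.7% of the reads of a library, and the factors of TMM scaling, which aligns libraries on the bulk of their genes, ran from 0.909 to 1.17. TMM-scaled values are therefore given beside the deposited ones. Summed germ cell markers were at 1675 to 2330 CPM in ON, against 1650 to 2322 CPM in OFF, with 1 of 9, nos-2, under 1 CPM. The sums rest mostly on pgl-1 and glh-1. Of the list, him-3 (mean 44.4 CPM in ON, against 75.8 in OFF) and htp-3 (113 against 199 CPM) were lower in ON. Both are meiotic chromosome axis genes and moved in the direction of cdk-1 and cyb-1. So did pgl-3 (148 against 164 CPM) and nos-2, while pgl-1 (907 against 837 CPM) and mex-3 (85.5 against 73.9 CPM) were higher in ON. The means of glh-1, glh-2 and deps-1 were only slightly higher in ON. Differences of single markers are given without a test. Summed oocyte markers, all 9 of them above 1 CPM, were at 411 to 601 CPM in ON, against 546 to 740 CPM in OFF, so these ranges overlapped with the OFF median of 662 CPM above every ON library. The largest difference of that list was in cpg-1 (mean 67.6 CPM in ON, against 145 in OFF). The mean of egg-1 was nearly even (23.2 against 24.1 CPM), and rme-2 alone was higher in ON (94.2 against 83.2 CPM). Summed sperm markers were at 5.71 to 8.40 CPM in ON, against 4.87 to 6.34 CPM in OFF. Of these, 8 of 10 were under 1 CPM, 2 of them at 0 in every library, and the sum rests mostly on spe-41 and spe-9. Summed somatic gonad markers were at 23.6 to 32.0 CPM and 29.7 to 41.8 CPM, and 5 of 8 were under 1 CPM. The sums were 1.296 to 4.52 CPM in ON and 1.69 to 11.9 CPM in OFF for intestine, where 7 of 8 markers including elt-2 were under 1 CPM, and 11.8 to 30.8 CPM and 17.0 to 26.4 CPM for muscle, where 1 of 7 was. Those of pharynx, epidermis and neurons were at most 37.1 CPM in any library. The part of these cell types in the results below was not tested.

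Transcripts of the kinase and of 3 of its 4 B-type cyclins were lower with GLP-1 active, while that of the activating phosphatase cdc-25.1 was higher. On the deposited scale these transcripts, of cdk-1, cyb-1 and both cyb-2 genes, were 1.35 to 1.64 times as abundant in OFF, and cdc-25.1 was 1.295 times as abundant in ON. The cyclins cyb-3 and cya-1 and the inhibitory kinase wee-1.3 did not pass the test on that scale, and cdc-25.2 and cdc-25.3 were too low to test. Of the 8 genes tested, 4 were called lower (50.0%) and 1 higher (12.5%) by limma at an adjusted p under 0.05, where 19.1% of all 6833 tested genes were called, 12.4% lower and 6.7% higher. The 4 lower calls held in all 22 alternatives run, whereas the call of cdc-25.1 was lost in 5 of them. The 8 tested genes passed the minimum level in both groups, each with at least 11.2 CPM in every library. In bulk tissue, fewer cells in a stage of the cycle and less RNA per cell cannot be told apart.

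**Figure D1:**
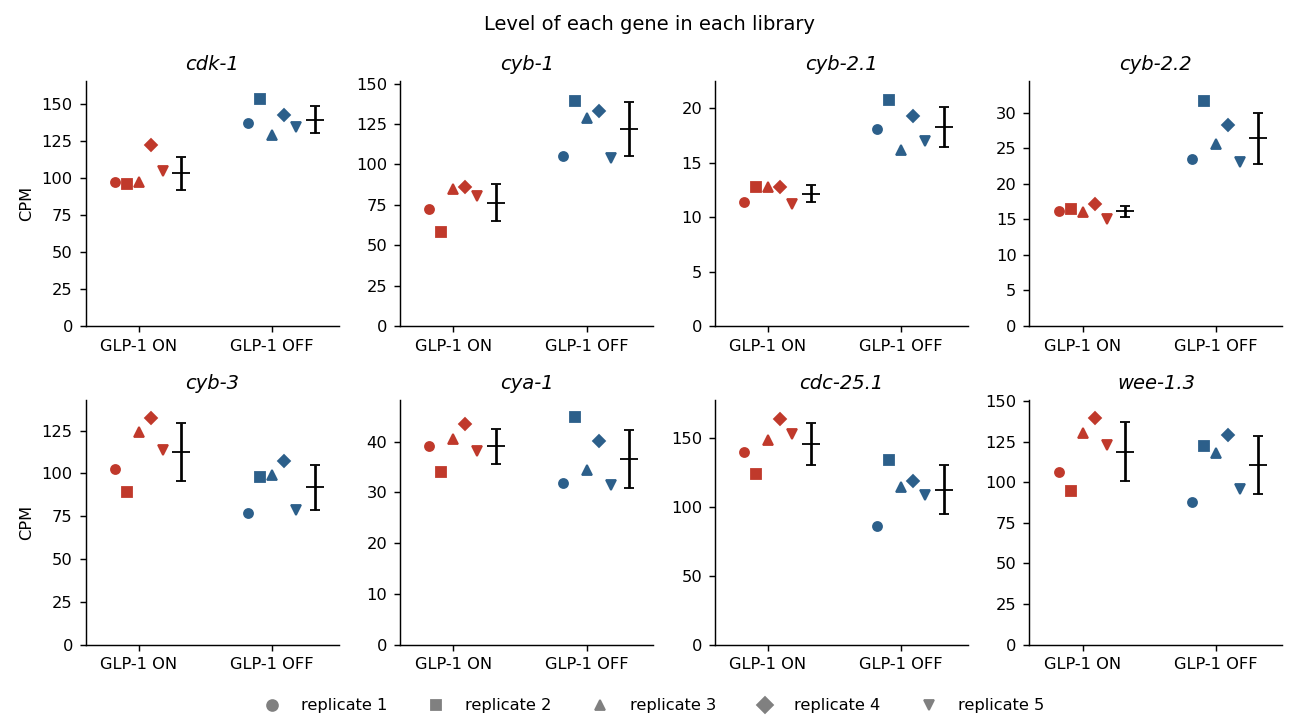
CPM of each testable gene (vertical axis, from 0) in the 5 GLP-1 ON and 5 GLP-1 OFF libraries, 1 point a library with replicates told apart by shape, and mean with SD in black. The groups do not overlap for cdk-1, cyb-1 and both cyb-2 genes, and they overlap for the other 4 genes.

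The kinase gene cdk-1 (WBGene00000405, chromosome III, 9747472 to 9748852, plus strand of WBcel235) encodes a protein of 332 residues. Its level was 97.2, 95.6, 97.0, 122 and 104 CPM in ON replicates 1 to 5 and 137, 153, 129, 143 and 135 CPM in OFF replicates 1 to 5. Every OFF library lay above every ON library, with ON replicate 4 and OFF replicate 3 closest to each other. The means were 103 ± 11.2 CPM and 139 ± 9.16 CPM (SD, n = 5), and limma gave a log2 difference, ON minus OFF, of -0.43 (SE 0.0964, 95% interval -0.63 to -0.23, adjusted p = 0.00293). With TMM scaling it was -0.39 (adjusted p = 2.5e-04). The gene lies 648 kb from glp-1 on the same chromosome, so a difference carried by the chromosome around the glp-1 alleles cannot be told apart from one of receptor state.

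The B-type cyclin gene cyb-1 (WBGene00000865, chromosome IV, 10735216 to 10737177, plus strand) also fell. Its level was 72.5, 58.3, 84.7, 85.9 and 80.3 CPM in ON and 105, 139, 129, 133 and 104 CPM in OFF. All OFF libraries were above all ON libraries, and ON replicate 2 was the lowest of all. The means were 76.3 ± 11.4 CPM and 122 ± 16.4 CPM, a log2 difference of -0.67 (SE 0.119, 95% interval -0.92 to -0.42, limma adjusted p = 3.3e-04) and of -0.63 with TMM scaling (adjusted p = 2.5e-05).

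The paralogs cyb-2.1 and cyb-2.2, which encode further B-type cyclins of 317 and 339 residues, lie on different chromosomes and fell by similar amounts. The level of cyb-2.1 (WBGene00000866, chromosome IV, 10985985 to 10987426) was 11.4, 12.8, 12.7, 12.7 and 11.2 CPM in ON and 18.1, 20.8, 16.2, 19.3 and 17.0 CPM in OFF. That of cyb-2.2 (WBGene00000867, chromosome I, 4114861 to 4116370) was 16.1, 16.4, 16.1, 17.1 and 15.03 CPM in ON and 23.5, 31.7, 25.6, 28.3 and 23.0 CPM in OFF. Both genes were tightly grouped in ON, with coefficients of variation of 6.60% and 4.69%, and no ON library reached an OFF library. The log2 difference was -0.55 for cyb-2.1 (SE 0.0942, limma adjusted p = 2.6e-04) and -0.67 for cyb-2.2 (SE 0.0987, adjusted p = 4.6e-05), or -0.50 and -0.63 with TMM scaling. The ratio of cyb-2.1 to cyb-2.2 per kilobase of exon was 0.746 to 0.833 in ON and 0.666 to 0.811 in OFF, and these ranges overlapped. As the 2 genes are close paralogs and no source says how reads matching several genes were treated, their separate values are uncertain.

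The labels number the libraries in 3 runs (56 to 58, 85 to 88 and 127 to 130) without saying what these stand for. The first run holds ON replicate 1 and OFF replicates 1 and 2, the second ON replicate 2 and OFF replicates 3 and 4. The third holds ON replicates 3 to 5 and OFF replicate 5. With no overlap between the groups, all 4 genes had to be lower in ON within every run, so this adds nothing to that separation. The log2 difference in the 3 runs was -0.57, -0.50 and -0.32 for cdk-1, -0.73, -1.15 and -0.31 for cyb-1, -0.72, -0.44 and -0.44 for cyb-2.1, and -0.73, -0.68 and -0.49 for cyb-2.2. For each of the 4 the exact permutation test over all assignments of libraries gave a two-sided p of 0.00794, the smallest possible, which is 0.0532 when adjusted over all 6833 genes. The same separation fixes this p in advance. The absence of overlap was itself common, since 14.9% of tested genes had none in CPM, 9.92% being lower and 5.01% higher in ON. All 4 calls held in each of the 22 alternatives run, with adjusted p of at most 0.0125.

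The activating phosphatase gene cdc-25.1 (WBGene00000386, chromosome I, 6469386 to 6471922, minus strand) moved the other way. Its level was 139, 123, 149, 164 and 153 CPM in ON and 86.2, 134, 114, 118.6 and 109 CPM in OFF. OFF replicate 2 lay above ON replicate 2, and otherwise every ON library was above every OFF library. The means were 146 ± 15.2 CPM and 112 ± 17.4 CPM, with a log2 difference of 0.38 (SE 0.114, 95% interval 0.14 to 0.62, limma adjusted p = 0.0237). The exact permutation p was 0.0159, which is 0.0817 when adjusted over all tested genes and does not pass. The limma call was lost without ON replicate 3, 4 or 5 (adjusted p = 0.0517, 0.0591 and 0.0574), with the runs of library numbers as a block (0.117) and without a filter on level (0.0691). With TMM scaling the log2 difference was 0.42 (adjusted p = 2.0e-04), the groups no longer overlapped, and the call held without any library and with either block (adjusted p at most 0.00129). On that scale 24.4% of tested genes had no overlap, 12.8% being lower and 11.6% higher in ON. It shares 7 exon bases with K06A5.2 on the other strand, with a mean of 2.21 CPM in ON, against 2.06 CPM in OFF.

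The B-type cyclin gene cyb-3 (WBGene00000868, chromosome V, 15395696 to 15397353, plus strand) did not fall with the other B-type cyclins. Its level was 102, 89.3, 124, 132 and 114 CPM in ON and 77.0, 97.7, 98.7, 107 and 78.5 CPM in OFF, and the groups overlapped because ON replicates 1 and 2 were within the OFF range. The log2 difference was 0.29 (SE 0.120, 95% interval 0.04 to 0.54) and did not pass (limma adjusted p = 0.103). With TMM scaling it was 0.33 and passed (adjusted p = 0.00458), as it did on every other alternative scale. The difference varied between the runs of library numbers. It was 0.24, -0.20 and 0.64 in CPM and 0.36, -0.01 and 0.51 after TMM scaling, so in the second run, which holds ON replicate 2 and OFF replicates 3 and 4, cyb-3 was not higher in ON.

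The A-type cyclin gene cya-1 (WBGene00000863, chromosome III, 9106699 to 9109272, minus strand) varied little between the groups. Its level was 39.2, 34.0, 40.5, 43.4 and 38.1 CPM in ON and 31.9, 44.8, 34.4, 40.0 and 31.5 CPM in OFF, with extensive overlap. The log2 difference was 0.10 (95% interval -0.12 to 0.33, limma adjusted p = 0.565). With TMM scaling it was 0.15 with an adjusted p of 0.0408, a call lost in 7 of the 10 fits that leave out 1 library (adjusted p up to 0.0989) and with the runs of library numbers as a block (0.0548). The gene lies 7.0 kb from glp-1, whose alleles define the groups, and shares 107 exon bases (5.14%) with dos-1 on the other strand, with a mean of 0.0764 CPM in ON, against 0.114 CPM in OFF.

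The inhibitory kinase gene wee-1.3 (WBGene00006940, chromosome II, 9713737 to 9716467, minus strand) had no call on any scale tried, although it passed when TMM scaling was combined with the replicate number as a block (log2 difference 0.15, limma adjusted p = 0.0262). Its level was 106, 94.4, 131, 139.8 and 123 CPM in ON and 87.8, 123, 118, 129 and 95.8 CPM in OFF, so the groups overlapped over most of their range. The log2 difference was 0.10 with a 95% interval of -0.16 to 0.36 (limma adjusted p = 0.615). The 3 runs of library numbers gave 0.04, -0.38 and 0.45, with both signs.

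The phosphatase genes cdc-25.2 (WBGene00000387, chromosome V, 1567076 to 1585532), which is known for a role in oocyte maturation, and cdc-25.3 (WBGene00000388, chromosome III, 8916351 to 8917929) were hardly detected. For cdc-25.2, 3 reads were counted over the 5 ON libraries and 2 over the 5 OFF libraries, with no more than 2 in any library. The cdc-25.3 gene lies 174 kb from glp-1 and shares 109 exon bases (9.58%) with trxr-2 on the other strand. The mean of trxr-2 was 14.1 CPM in ON, against 17.4 CPM in OFF. For cdc-25.3 there were 0 reads in ON and 3 in OFF, all in OFF replicate 3. These are at or under a floor of 3 reads per library, worth 0.0779 to 0.171 CPM, so no fold was computed, and reads counted to cdc-25.1 made up nearly all CDC25 reads in every library.

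**Figure D2:**
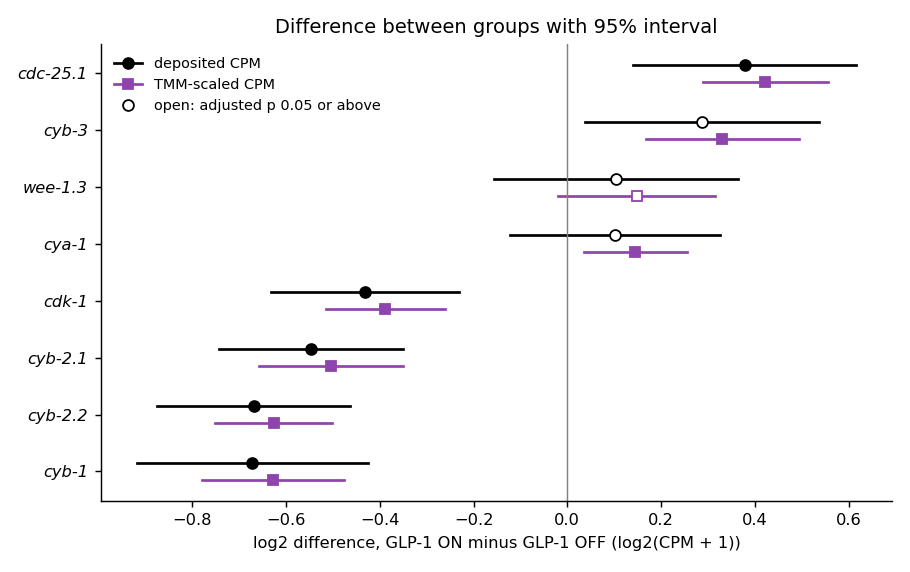
Log2 difference of each testable gene, GLP-1 ON minus GLP-1 OFF on the log2(CPM + 1) scale (horizontal axis), with 95% intervals, on deposited CPM (black circles) and TMM-scaled CPM (purple squares), filled where limma's adjusted p is under 0.05. Intervals of cdk-1, cyb-1 and both cyb-2 genes lie below 0 on both scales, and those of cdc-25.1 and cyb-3 lie above 0 on both, although cyb-3 passes only after scaling.

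On the TMM scale, then, 4 of 8 genes were lower and 3 higher (37.5%), against 34.8% of all tested genes called, 18.2% lower and 16.5% higher, and wee-1.3 alone had no call. The edgeR quasi-likelihood test on recovered reads gave the same counts, 4 lower and 3 higher, with 34.9% of all tested genes called (18.1% lower and 16.8% higher). The shift between scales was small, as the median log2 difference of all tested genes was -0.05 in CPM and -0.01 with TMM. Scaling narrowed the spread between libraries in most cases, though not for cdk-1 in OFF (6.57% to 6.84%) or for cyb-2.1 and cyb-2.2 in ON (6.60% to 8.80% and 4.69% to 6.997%). The coefficient of variation in OFF went from 13.6% to 3.16% for cyb-2.2, from 15.7% to 4.90% for cya-1 and from 13.5% to 6.13% for cyb-1. On the deposited scale ON replicate 4 was the highest ON library for 7 of the 8 genes and OFF replicate 2 the highest OFF library for 6, while ON replicate 2 was the lowest ON library for 6. These are also the ON and OFF libraries with the lowest rRNA share (40.1% and 38.9%) and the ON library with the highest (49.6%). The part of the rRNA share in these values was not tested.

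Levels per kilobase of exon put cdk-1 first in both groups, at 87.2 ± 9.42 CPM per kb in ON and 118 ± 7.73 CPM per kb in OFF (SD, n = 5). In ON it was followed by cyb-3 at 76.9, cdc-25.1 at 64.4, wee-1.3 at 49.4 and cyb-1 at 45.1 CPM per kb. In OFF the second place was held by cyb-1 at 72.1 CPM per kb, ahead of cyb-3 at 62.8, cdc-25.1 at 49.7 and wee-1.3 at 46.0. The ranges of neighbours in these upper places overlapped across libraries, apart from cdk-1 and cyb-1 in OFF. Compared within a library, cyb-3 exceeded cdc-25.1 in 5 of 5 ON libraries and cyb-1 exceeded cyb-3 in 5 of 5 OFF libraries. However, cdk-1 exceeded cyb-3 in only 4 of 5 ON libraries, and cdc-25.1 exceeded wee-1.3 in 4 of 5 OFF libraries. The lower places held cya-1 at 18.7 CPM per kb, cyb-2.2 at 12.1 and cyb-2.1 at 9.60 in ON, whose ranges did not overlap. In OFF cyb-2.2 at 19.8 CPM per kb came before cya-1 at 17.5 and cyb-2.1 at 14.4, and neighbouring ranges overlapped.

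The makeup of the cyclin transcripts was read as shares within a library, which library scaling leaves as they are. Of the summed CPM per kb of the 5 cyclin genes, cyb-3 held 45.9%, 45.5%, 48.1%, 48.9% and 47.5% in ON replicates 1 to 5 and 32.5%, 31.7%, 35.1%, 35.3% and 33.4% in OFF replicates 1 to 5. The share of cyb-1 was 25.7% to 29.0% in ON and 37.9% to 39.6% in OFF. Every ON library had more cyb-3 than cyb-1 and every OFF library had less. The cyb-2.2 share was 6.84% to 9.15% in ON and 9.98% to 11.3% in OFF, the cya-1 share was 11.01% to 12.3% and 8.58% to 10.2%, and the cyb-2.1 shares overlapped. These shares are descriptions with no test, and their sum contains the genes that fell, so a gene at an even level can gain share. Set against the same sum, 22.7% of the other tested genes were higher in ON without overlap and 4.55% were lower. The sum itself was 134 to 185 CPM per kb in ON and 161 to 211 CPM per kb in OFF, with overlap, and its ratio to cdk-1 was 1.66 to 2.16 in ON and 1.398 to 1.77 in OFF.

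**Figure D3:**
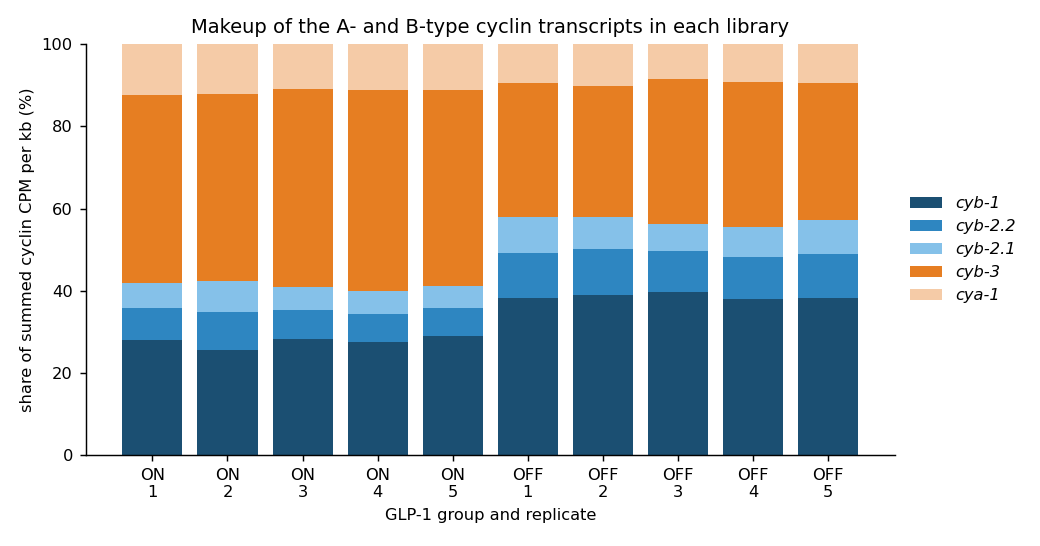
Share of each cyclin gene in the summed CPM per kb of cyb-1, cyb-2.1, cyb-2.2, cyb-3 and cya-1 (vertical axis, percent), 1 bar for each of the 5 ON and 5 OFF libraries. The orange cyb-3 part is 45.5% to 48.9% in ON and 31.7% to 35.3% in OFF, and the dark blue cyb-1 part is 25.7% to 29.0% and 37.9% to 39.6%.

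As a ratio per kb within a library, cyb-3 to cyb-1 was 1.64, 1.77, 1.69, 1.78 and 1.64 in ON and 0.850, 0.814, 0.887, 0.930 and 0.876 in OFF. The log2 difference of this ratio was 0.98, 0.96 and 0.96 in the 3 runs of library numbers, including the second, where cyb-3 alone was not higher. Because cyb-1 fell, such a separation was common, and the ratio to cyb-1 was higher in ON without overlap for 73.1% of all other tested genes and lower for 0.878%. The ratio is thus given as a description of the pair and was not tested.

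The balance of activating phosphatase, inhibitory kinase and target was also read within libraries. The ratio of cdc-25.1 to cdk-1 per kb was 0.751, 0.676, 0.803, 0.702 and 0.768 in ON and 0.329, 0.459, 0.465, 0.435 and 0.423 in OFF. That of wee-1.3 to cdk-1 was 0.487 to 0.663 in ON and 0.315 to 0.451 in OFF, and that of cyb-3 to cdk-1 was 0.757 to 1.04 and 0.455 to 0.621. None of these ratios overlapped between the groups, but the ratio to cdk-1 was higher in ON without overlap for 49.0% of all other tested genes and lower for 1.52%. The ratio of phosphatase to inhibitor, cdc-25.1 to wee-1.3, was 1.39, 1.39, 1.21, 1.25 and 1.32 in ON and 1.04, 1.16, 1.03, 0.978 and 1.21 in OFF. Its lowest ON value, 1.210 in replicate 3, was just above its highest OFF value, 1.205 in replicate 5, and both libraries belong to the third run, where the log2 difference of the ratio was 0.06 against 0.34 and 0.47 in the other runs. The share of all tested genes without overlap in the ratio to wee-1.3 was not computed, so how common such a separation is cannot be said. The ratios to cdk-1 of cyb-1 and of both cyb-2 genes overlapped between the groups.

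**Figure D4:**
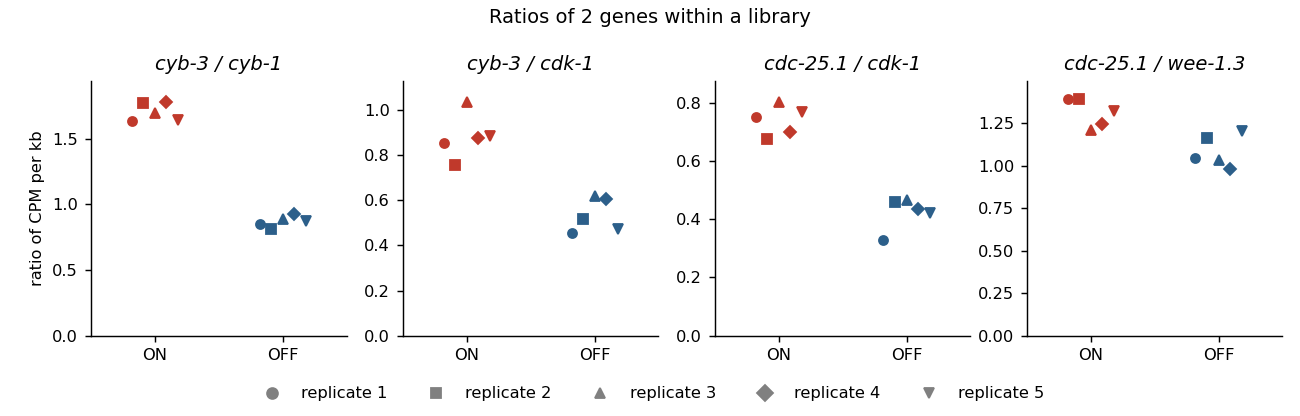
Ratios of CPM per kb of 2 genes within a library (vertical axes, from 0) in 5 ON and 5 OFF libraries, 1 point a library with replicates told apart by shape. For cyb-3 to cyb-1 the ON points lie at 1.64 to 1.78 and the OFF points at 0.814 to 0.930, and for cdc-25.1 to wee-1.3 the groups nearly touch.

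Other regulators of CDK-1 and of entry into and exit from mitosis were read from a list of 46 genes, of which 41 were tested. Of these, 7 fell in ON (17.1%) and 0 rose in limma, against 12.4% and 6.7% of all tested genes, and the median log2 difference of the list was -0.05, as for all tested genes. With TMM scaling 14 were lower and 5 higher (34.1% and 12.2%, against 18.2% and 16.5%), and edgeR gave 13 and 5. The Bora homolog spat-1, whose product promotes activation of Polo-like kinase at mitotic entry, fell to 34.1 ± 4.25 CPM from 56.0 ± 9.36 CPM (log2 difference -0.69, limma adjusted p = 2.4e-04). The level of fzr-1, encoding the Cdh1-type activator that directs the anaphase-promoting complex to B-type cyclins, fell to 41.3 ± 7.93 CPM from 66.8 ± 10.3 CPM (log2 difference -0.69, adjusted p = 6.9e-04). The gene zyg-11, for a substrate receptor of CUL-2 ubiquitin ligases, fell by 0.54 on the log2 scale (adjusted p = 0.0020), although ON replicate 4 was within the OFF range. The other falls were in cki-2, a CDK inhibitor (log2 difference -0.67), cdk-2, the kinase of S phase entry (-0.51), tpxl-1, which activates the Aurora kinase AIR-1 (-0.36), and ftt-2, which encodes a protein of the family that binds phosphorylated CDC25 (-2.11, with 3.02 ± 0.974 CPM in ON and 16.4 ± 4.03 CPM in OFF). The call of tpxl-1 (adjusted p = 0.0427) was lost in 6 of the 10 fits that leave out 1 library, namely those dropping replicate 1, 2 or 3 of ON, or 2, 3 or 4 of OFF, with adjusted p between 0.0637 and 0.129.

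The most abundant uncalled genes of that list were par-5, the paralog of ftt-2, at 798 ± 44.7 CPM in ON, against 723 ± 55.0 CPM in OFF (log2 difference 0.14, limma adjusted p = 0.309), the spindle checkpoint kinase gene bub-1 at 277 ± 28.0 and 326 ± 42.3 CPM (-0.23, adjusted p = 0.153), and mat-2, a subunit gene of the anaphase-promoting complex, at 254 ± 28.7 and 273 ± 47.8 CPM (-0.09, adjusted p = 0.643). With TMM scaling par-5 was called higher (log2 difference 0.19, limma adjusted p = 0.00794) and bub-1 lower (-0.19, adjusted p = 0.0169), while mat-2 had no call. Over all alternatives par-5 was called in 4 and bub-1 in 7, among them the fit without OFF replicate 1. A further 3 genes, chosen after their values were seen, had intervals around 0. They were plk-1, the Polo-like kinase (log2 difference 0.06, 95% interval -0.18 to 0.29), cks-1, the CDK subunit (0.02, -0.20 to 0.25), and cdk-7, the CDK-activating kinase (-0.02, -0.22 to 0.18). The 5 genes under the minimum level were wee-1.1, with 0 reads in every library, cdc-25.4, cdk-4, cyd-1 and cki-1, none of which reached a group mean of 0.4 CPM.

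**Figure D5:**
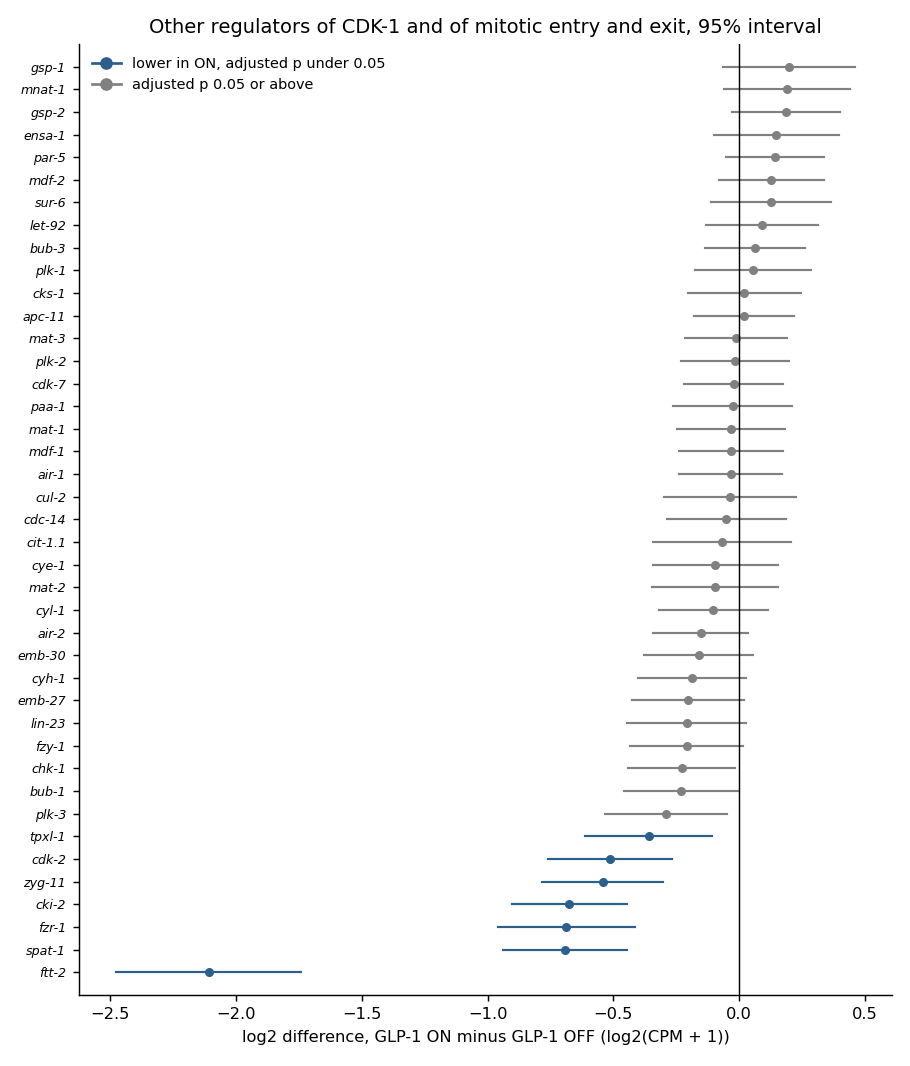
Log2 difference of the 41 tested genes of the list, GLP-1 ON minus GLP-1 OFF on the log2(CPM + 1) scale of deposited CPM (horizontal axis), with 95% intervals, blue where lower in ON at an adjusted p under 0.05. The 7 called genes run from -2.11 for ftt-2 to -0.36 for tpxl-1, and the other 34 lie between -0.29 and 0.20.

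For each of the 5 called genes the tested genes with the most similar profile were sought, as the smallest root mean square difference of centred log2(CPM + 1) over the 10 libraries. For cyb-1 these were gdi-1, a Rab GDP dissociation inhibitor gene (0.0674), cpb-3, which encodes a CPEB-type RNA-binding protein (0.0695), and pif-1 (0.0710). They kept the first 3 ranks after TMM scaling, as did those of cyb-2.1 and cdc-25.1 below, whereas mboa-2 for cdk-1 and Y17G7B.17 for cyb-2.2 went to rank 4. The mean of cpb-3 was 73.3 CPM in ON, against 121 CPM in OFF. For cdk-1 they were prx-14 (0.0698), mboa-2 (0.0702) and rab-39 (0.0726), for cyb-2.1 rlbp-1 (0.0600), Y57A10A.7 (0.0619) and vps-24 (0.0662), and for cyb-2.2 C13F10.5 (0.0600), C47E12.3 (0.0628) and Y17G7B.17 (0.0638). For cdc-25.1 they were kin-3, a casein kinase II gene (0.0522), the nucleolar protein gene nol-5 (0.0570) and cul-3 (0.0573). Since all the genes of this paragraph were picked for likeness to a called member, their own differences, that of cpb-3 included, are no separate result.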

How the data were processed

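The submitters' processing notes name STAR (2.0.4b), Subread with featureCounts (1.4.5), limma and edgeR. Build, annotation, strand setting and handling of multiply matching reads were not given in the sources used here. Signal values deposited by the authors are CPM in 46998 rows, and 462 rows that duplicated an earlier gene were dropped. Dividing by the smallest value above 0 gave whole reads (within 0.01 read) for 100% of values, with 1 read worth 0.0260 to 0.0571 CPM. Intervals rest on the spread between libraries within a group, in which animals, amplification and read sampling cannot be told apart. The 6833 genes reaching 1 CPM in 5 or more libraries entered limma 3.58.1 (R 4.3.3), run on log2(CPM + 1) with the trend option, all 10 libraries, two-sided, Benjamini-Hochberg adjusted over all tested genes, called under 0.05. Log2 differences understate changes of low genes. Recovered reads were tested with edgeR 4.0.16 and DESeq2 1.42.0 as alternatives. Others were 2 pseudocounts, 2 filters, 4 scalings, 2 blocks and leaving out each library. Summed markers and member ratios are descriptions. Coordinates, exon lengths and overlaps come from the Ensembl WBcel235 annotation matched by identifier. Named genes were the members, glp-1, called and the 3 most abundant uncalled genes of the regulator list, and 3 nearest profiles per called member. Members and lists were chosen with earlier results of these data known. The procedure was also run on simulated counts, whose outcome is not given here. Those counts held no differences in scaling, rRNA share or run between libraries, so they do not bear on these. A promoter motif search was not run, since no sequence was used here.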

Additional observations from a re-analysis of the deposited data

Results flagged for a closer look

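In 2 of the 110 groups checked, 1 library stood apart from the other 4, fewer than the 1 in 20 groups that chance alone gives. The share of cyb-2.1 in the summed cyclin CPM per kb was 7.52% in ON replicate 2 and 5.39% to 5.89% in the other ON libraries, and this library also held the lowest cyb-1 level. The level of vps-24, named for its profile close to cyb-2.1, was 40.2 CPM in OFF replicate 2 and 32.0 to 34.2 CPM in the other OFF libraries, and this library has the largest TMM factor, 1.17.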

How the results depend on the processing

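The calls of cdk-1, cyb-1 and both cyb-2 genes and the absence of a call for wee-1.3 held in all 22 alternatives. The count of the 10 genes called lower was 4 in each of them, and that called higher, 1 as reported, was 3 with TMM, median-ratio or quantile scaling, edgeR or DESeq2, 2 with CPM outside rRNA genes, 0 with the library set block or no filter, and 0 to 2 when 1 library was left out. For cyb-3 the log2 difference passed at 0.33 with TMM, 0.34 with median-ratio, 0.31 with quantile scaling and 0.30 outside rRNA genes, at 0.33 in edgeR and 0.35 in DESeq2, and was 0.23 to 0.37 when 1 library was left out, passing without ON replicate 2 (0.37). For cya-1 it passed at 0.15 with TMM, 0.16 with median-ratio and 0.17 with quantile scaling, at 0.15 in edgeR and 0.16 in DESeq2. For cdc-25.1 it was 0.33 with the library set block and 0.38 without a filter, both no longer called, and 0.29 to 0.45 when 1 library was left out. Of all tested genes 1305 were called (847 lower, 458 higher). The counts of all, lower and higher were 2054, 1274 and 780 outside rRNA genes, and all and higher were 2376 and 1129 with TMM, 2374 and 1219 with median-ratio, 2450 and 1248 with quantile scaling, 2382 and 1145 in edgeR, 2534 and 1323 in DESeq2, and 844 and 221 at 5 CPM. The fit at 5 CPM kept only genes reaching that level in 5 libraries, so its counts are out of fewer genes than the others. The cause of the other shifts was not tested. Pairing by replicate number required a correlation of deviations over 0.1 in every pair. It was 0.24, 0.23, 0.46 and 0.17 in 4 of 5 pairs but -0.02 for replicate 2, so the numbers were not taken to pair the libraries. Between ON and OFF libraries of the same run of library numbers the median correlation was -0.12 (-0.48 to 0.24). It was 0.06 (-0.38 to 0.59) between those of different runs. With the replicate block 4 of the members were lower and 1 higher, and 3 of 5 ON libraries correlated best with their own number. With TMM and this block, an alternative chosen after seeing the data, wee-1.3 passed (log2 difference 0.15, adjusted p = 0.0262). At these depths cdc-25.2 and cdc-25.3 could not be compared.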
